A study of Mus musculus with 9 samples.

Results

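Vegfa, Efna1 and Areg encode 3 secreted or cell-surface ligands and were the 3 members described here, found by gene symbol among the 675 genes of the deposited table. The data were RNA-seq levels in microvascular endothelial cells of wild-type mouse brain (MBMECs), the cells that line the capillaries of the brain; the labels list them as a cell line. Cells were deprived of oxygen, glucose and fetal bovine serum (OGD, a culture model of ischemia) with 3 µM obacunone (OGD+Oba), deprived without it (OGD), or kept in normoxia, for 1, 3 or 6 h. Obacunone is a limonoid found in citrus. There was 1 library in each of the 9 groups, so a difference between 2 libraries has no replicate check. Both deprived arms share the withdrawal of oxygen, glucose and serum.

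The table is a selection: by the ratios in the authors' deposited table, OGD and normoxia at 6 h were 2-fold or more apart for every gene in it, with 350 genes up and 325 down. The 6 h difference of each ligand gene is therefore part of how the table was made. Its 1 h and 3 h differences were not used for that choice, but they need not be independent of it. By these ratios, on the log2 scale, Vegfa stood at 4.80, Efna1 at 4.46 and Areg at 1.87. Levels are in FPKM, the fragments of a gene relative to its transcript length and to all fragments mapped. All 3 ligand genes averaged 1 FPKM or more and so were among the 580 genes tested. Counts of fragments were inferred from the authors' log2 ratios, of which 3829 of 4036 (94.87%) were ratios of 2 whole numbers. For the ligand genes they gave 312 to 9225 fragments per library for Vegfa, 36 to 881 for Efna1 and 21 to 137 for Areg. Each interval given beside a level or fold is a 95% interval from these counts and covers counting error only, not the spread between cultures.

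Vascular endothelial growth factor A (Vegfa) is the main ligand that drives endothelial cells to divide, migrate and become permeable, and hypoxia-inducible factors raise its transcription when oxygen is low. Ephrin-A1 (Efna1) is held on the cell surface by a lipid anchor, binds EphA receptors on neighbouring cells and takes part in the guidance of growing vessels. Amphiregulin (Areg) is made as a membrane precursor, is released by the sheddase ADAM17 and acts on the epidermal growth factor (EGF) receptor; the factor CREB, activated by cyclic AMP, is a known inducer of it. In brain capillaries the release of Vegfa is known for opening the barrier after ischemia.

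The regions just before the annotated starts are shown because Vegfa and Efna1 had like courses over these libraries and Areg had another. They are the 250 bases before the outermost RefSeq start of each gene on GRCm38.p6, 5′ to 3′ on the gene's strand. Vegfa lies at chr17:46016993-46032377 on the minus strand with its window at chr17:46032378-46032627. Efna1 lies at chr3:89271730-89280951 on the minus strand with its window at chr3:89280952-89281201. Areg lies at chr5:91139599-91148432 on the plus strand with its window at chr5:91139349-91139598. Capitals mark every match, on either strand, to ACGTG or GCGTG (cores of the hypoxia response element), TGACGTCA (the cyclic AMP response element, CRE), TGANTCA (the AP-1 site), TATAAA (the TATA box) and GGGCGG (the SP1 box).
Vegfa: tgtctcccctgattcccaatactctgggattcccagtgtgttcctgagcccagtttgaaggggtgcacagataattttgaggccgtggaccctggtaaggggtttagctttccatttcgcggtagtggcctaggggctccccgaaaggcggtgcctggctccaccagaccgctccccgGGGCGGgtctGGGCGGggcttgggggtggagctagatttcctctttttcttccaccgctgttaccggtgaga
Efna1: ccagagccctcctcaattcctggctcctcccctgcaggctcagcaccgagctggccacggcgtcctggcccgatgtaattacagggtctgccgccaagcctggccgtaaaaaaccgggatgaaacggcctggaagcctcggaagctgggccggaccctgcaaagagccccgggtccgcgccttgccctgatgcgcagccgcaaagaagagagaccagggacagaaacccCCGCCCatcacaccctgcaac
Areg: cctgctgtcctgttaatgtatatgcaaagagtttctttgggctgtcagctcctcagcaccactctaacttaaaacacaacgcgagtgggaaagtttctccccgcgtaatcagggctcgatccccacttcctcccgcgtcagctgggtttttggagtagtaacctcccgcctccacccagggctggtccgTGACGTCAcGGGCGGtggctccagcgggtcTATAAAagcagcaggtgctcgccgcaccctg

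The Vegfa window held the SP1 box at -72 and -62, counted as bases from the annotated start, and none of the other motifs. The Efna1 window held it once, at -21 on the opposite strand, where it reads CCGCCC. The Areg window held a CRE at -61, an SP1 box at -52 and a TATA box at -31. Over 32851 promoter windows of the same length, 1.55% held the CRE, 12.4% the TATA box and 32.7% the SP1 box, and 38.6% held either hypoxia core. RefSeq also lists an inner start for Vegfa and for Efna1, whose windows lie inside the gene rather than upstream of it. That of Vegfa held both hypoxia cores and an SP1 box, and that of Efna1 SP1 boxes at -66 and -55. The GC content of the 5 windows was 57.2% to 64.8%, against a median of 52.4%. These matches describe letters in the windows, and factor binding was not measured. Sequence farther upstream was not searched, so a motif missing from a window may still lie outside it.

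The OGD libraries were set against normoxia to see the response to deprivation. Vegfa and Efna1 did not pass the test at 1 h, and at 3 h their OGD level was more than 10-fold that of normoxia. Areg did not pass at 1 h or 3 h, and at 6 h its level in the normoxia library was the lowest of all 9. The plot of levels by arm and time shows these courses.

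**Figure D1:**
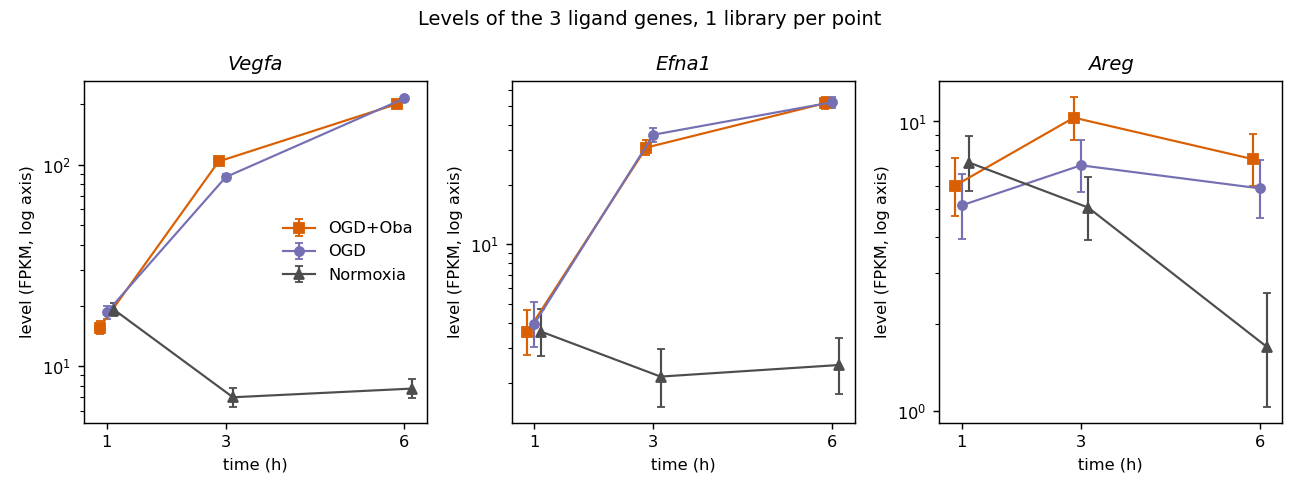
FPKM (log axis) of Vegfa, Efna1 and Areg at 1, 3 and 6 h, 1 library per point, with 95% intervals from inferred counts. Vegfa and Efna1 climb in the OGD+Oba and OGD arms to 201 and 214 FPKM and to 51.4 and 52.0 FPKM at 6 h, while for Areg the normoxia line drops to 1.67 FPKM and the deprived lines stay between 5.14 and 10.3 FPKM.

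The level of Vegfa was 15.5, 104 and 201 FPKM in the OGD+Oba libraries at 1, 3 and 6 h, 18.5, 86.9 and 214 FPKM in the OGD libraries and 19.1, 7.01 and 7.74 FPKM in the normoxia libraries. The 4 deprived libraries of 3 h and 6 h were above all normoxia libraries, and both deprived libraries of 1 h lay within the normoxia range. OGD over normoxia gave a fold of 0.967 at 1 h (0.873 to 1.07), 12.4 at 3 h (11.0 to 14.0) and 27.6 at 6 h (24.7 to 30.9). In bulk RNA a lower level can come from fewer cells of a type or from less RNA per cell, and these cannot be told apart here.

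Efna1 was at 3.60, 30.7 and 51.4 FPKM in the OGD+Oba libraries, 3.96, 35.7 and 52.0 FPKM in the OGD libraries and 3.62, 2.15 and 2.46 FPKM in the normoxia libraries at 1, 3 and 6 h. The 3 libraries of 1 h differed by less than their counting intervals, and each deprived library of 3 h and 6 h was above every normoxia library, as was OGD at 1 h. OGD over normoxia gave a fold of 1.09 at 1 h (0.747 to 1.60), 16.6 at 3 h (11.8 to 23.9) and 21.1 at 6 h (15.4 to 29.8). Its 3 h fold had an interval that overlaps the 3 h interval of Vegfa, although Efna1 stood at a lower level in every library.

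Areg was at 6.00, 10.3 and 7.42 FPKM in the OGD+Oba libraries, 5.14, 7.06 and 5.88 FPKM in the OGD libraries and 7.22, 5.05 and 1.67 FPKM in the normoxia libraries at 1, 3 and 6 h. The deprived libraries spanned 2.01-fold and the normoxia libraries 4.32-fold. Only the OGD+Oba libraries of 3 h and 6 h were above all normoxia libraries, and none of the OGD libraries was. OGD over normoxia gave a fold of 0.712 at 1 h (0.503 to 1.00), 1.40 at 3 h (1.01 to 1.95) and 3.52 at 6 h (2.15 to 6.01).

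The test was a limma fit over all 580 genes on log2(FPKM + 1), with an effect of OGD at each time and 1 effect of obacunone common to the times; effects are log2 differences ± SE and p values are adjusted by the Benjamini-Hochberg method. Its error comes from the 2 deprived libraries of each time; the single normoxia library is taken to vary as much as they do. At 1 h none of the 3 genes passed: the effect was -0.15 ± 0.17 for Vegfa, 0.10 ± 0.17 for Efna1 and -0.49 ± 0.20 for Areg (adjusted p = 0.421). At that time 0% of tested genes were called higher and 3.79% lower in limma (63 genes at an unadjusted p under 0.05).

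At 3 h Vegfa rose by 3.60 ± 0.17 and Efna1 by 3.49 ± 0.17, both with an adjusted p of 3.56e-06, where 31.2% of tested genes were called higher. Their effects were at ranks 4 and 5 of the 580. Areg, at 0.50 ± 0.20 and rank 195, missed the limma threshold (adjusted p = 0.0646). It passed with median-ratio scaling (adjusted p = 0.0377) and with limma without trend (0.0458); the adjusted p ranged from 0.0377 to 0.165 over 8 alternatives.

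At 6 h the effect was 4.58 ± 0.17 for Vegfa, 3.98 ± 0.17 for Efna1 and 1.35 ± 0.20 for Areg. These are descriptions: the table lists genes for their 6 h difference, 52.9% of tested genes were called higher and 44.7% lower then, and nothing is read from a call at this time. Vegfa had rank 2, Efna1 rank 5 and Areg rank 142 of 580. The median effect over all tested genes was 0.76 at 6 h and 0.32 after median-ratio scaling; relative to these medians Vegfa stood at 3.83 and 3.70, Efna1 at 3.23 and 3.16 and Areg at 0.59 and 0.58. Scaling lowered the 6 h folds of OGD over normoxia to 18.1 for Vegfa, 13.9 for Efna1 and 2.31 for Areg.

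**Figure D2:**
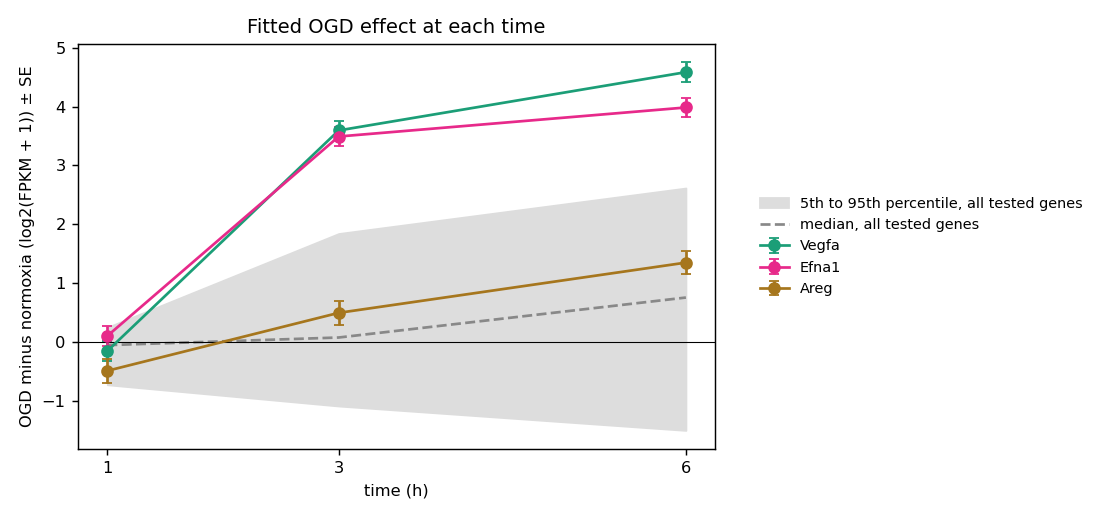
Fitted OGD minus normoxia effect on log2(FPKM + 1) at 1, 3 and 6 h, with SE bars, for the 3 ligand genes; the grey band spans the 5th to the 95th percentile and the dashed line the median of the 580 tested genes. Vegfa and Efna1 leave the band at 3 h, at 3.60 and 3.49, and Areg stays inside it at each time.

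The change of the OGD effect between times was tested in the same fit. From 1 h to 3 h it grew by 3.75 ± 0.22 for Vegfa (limma, adjusted p = 1.79e-05), by 3.39 ± 0.22 for Efna1 (2.6e-05) and by 0.98 ± 0.27 for Areg (0.0245), and 26.4% of tested genes were called with growth in this direction. From 3 h to 6 h, a change that holds the 6 h difference the genes were listed for and where 19.7% were called, it grew by 0.99 ± 0.22 for Vegfa (adjusted p = 0.0187) and by 0.85 ± 0.27 for Areg (0.049). The value for Efna1 was 0.49 ± 0.22 (limma, adjusted p = 0.128, interval -0.03 to 1.02). The calls from 3 h to 6 h ended with median-ratio scaling, at 0.46 for Vegfa and 0.44 for Areg (limma, adjusted p = 0.102 and 0.134), which turned the median over all genes to -0.26. They also ended in limma without trend (0.0596 for Vegfa and 0.0566 for Areg), and that of Areg with no floor on low genes (0.0656).

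With time and arm as the only terms, so that a change with time counts as error, Vegfa rose by 2.68 ± 0.62 over the 3 times (limma, adjusted p = 0.0101) and Efna1 by 2.53 ± 0.53 (0.00329); 3.1% of tested genes were called higher, and the 6 h libraries that chose the genes are part of this fit. Areg had 0.45 ± 0.36 (limma, adjusted p = 0.297) and was higher in OGD than in normoxia at 2 of 3 times. The calls of Vegfa and Efna1 ended when the 3 h libraries (limma, adjusted p = 0.354 and 0.242) or the 6 h libraries (0.842 each) were left out. They also ended with median-ratio scaling (0.199 each) and with the robust option of limma (0.183 and 0.151). Areg passed without the 1 h libraries, at 0.89 (limma, adjusted p = 0.0119), and its value was -0.0035 without the 6 h libraries.

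Each arm was also set against its own 1 h library, where time in culture and library cannot be told apart. A limma contrast of 3 h minus 1 h, added after the data were seen, rose in the deprived arms together by 2.42 ± 0.13 for Vegfa (adjusted p = 4.93e-06), 2.84 ± 0.13 for Efna1 (2.49e-06) and 0.54 ± 0.16 for Areg (0.0228), where 29.5% of tested genes were called higher. In normoxia, where 12.8% were called lower, Vegfa fell by 1.33 ± 0.18 (limma, adjusted p = 0.00189). The normoxia values of Efna1 and Areg were -0.55 ± 0.18 and -0.44 ± 0.22 (limma, adjusted p = 0.0821 and 0.222). The changes from 1 h to 6 h were not tested, since the 6 h libraries chose the genes. Vegfa at 6 h was 12.9-fold its 1 h level in OGD+Oba (11.9 to 14.0), 11.6-fold in OGD (10.7 to 12.5) and 0.405-fold in normoxia (0.355 to 0.461). Its normoxia level was already lower at 3 h, at 0.367-fold of 1 h (0.321 to 0.419), and differed little between 3 h and 6 h (1.10-fold, 0.943 to 1.29).

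Efna1 at 6 h was 14.3-fold its 1 h level in OGD+Oba (11.0 to 18.9), 13.1-fold in OGD (10.1 to 17.4) and 0.680-fold in normoxia (0.441 to 1.04). Most of that distance was covered by 3 h, at 8.53-fold in OGD+Oba and 9.01-fold in OGD. From 3 h to 6 h its level went up 1.67-fold in OGD+Oba and 1.46-fold in OGD, against 1.93-fold and 2.46-fold for Vegfa. The median-ratio factors at 3 h and 6 h were 1.04 and 1.21 in OGD+Oba and 0.956 and 1.23 in OGD. Scaling by them lowers each of these folds.

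Areg at 6 h was 1.24-fold its 1 h level in OGD+Oba (0.907 to 1.69), 1.14-fold in OGD (0.806 to 1.63) and 0.231-fold in normoxia (0.136 to 0.376). Both deprived intervals include 1, and the normoxia interval does not. Median-ratio scaling gave 0.938-fold, 0.935-fold and 0.297-fold. In both deprived arms the 3 h library held the highest level, at 1.72-fold of 1 h in OGD+Oba (1.29 to 2.30) and 1.37-fold in OGD (0.984 to 1.93). The 6 h normoxia library rests on 21 inferred fragments of Areg, and it is 1 of the 2 libraries that chose the genes of the table.

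Across all tested genes, 11% were at least 2-fold lower on log2(FPKM + 1) in normoxia at 6 h than at 1 h, and 5.34% at 3 h than at 1 h. Areg was among the first group, with a difference of -1.62, the 21st lowest of 580, and so was Vegfa with -1.20. Vegfa, with -1.33, was also among the second. Efna1, with -0.42 and -0.55, was in neither.

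**Figure D3:**
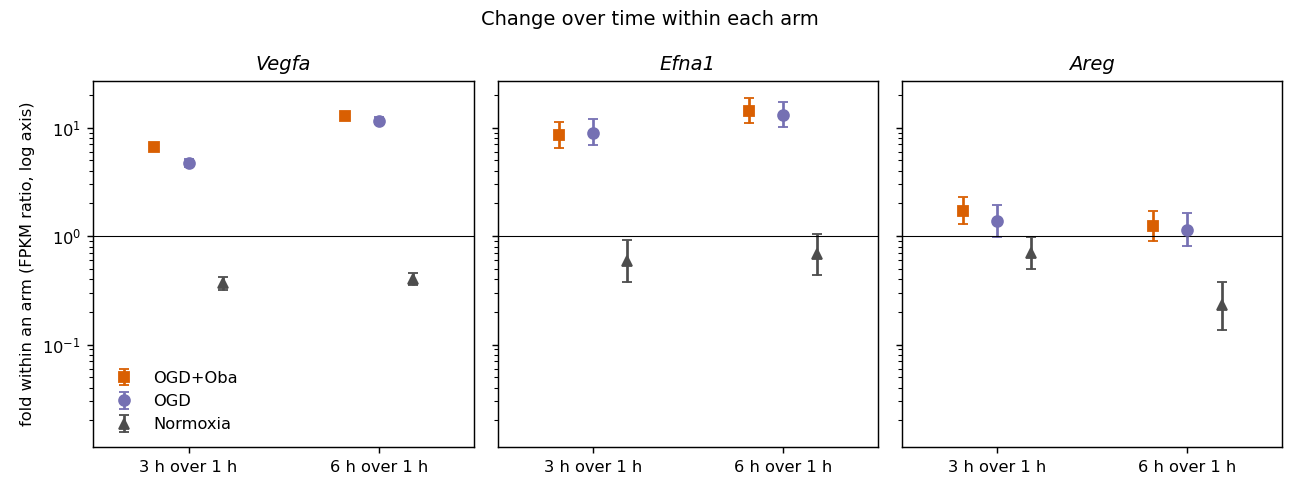
Fold of the 3 h and 6 h levels over the 1 h level of the same arm (log axis), with 95% intervals from inferred counts, 1 library per level. For Vegfa and Efna1 the deprived arms lie far above 1, up to 12.9-fold and 14.3-fold at 6 h, and for Areg the farthest point from 1 is normoxia at 6 h, 0.231-fold.

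In the order of levels, Vegfa ran from the deprived libraries of 6 h through those of 3 h and all libraries of 1 h to normoxia at 6 h and 3 h. Of its 8 steps between neighbours, those between normoxia and OGD at 1 h and between normoxia at 6 h and 3 h were within counting error. Efna1 had the same tiers, and the steps among its 5 lowest libraries and the step between its 2 highest were within counting error. Libraries farther apart in that run did differ, as normoxia at 3 h over normoxia at 1 h gave 0.594 (0.380 to 0.919). For Areg only the highest library, OGD+Oba at 3 h, and the lowest, normoxia at 6 h, stood apart from their neighbours. The 7 libraries between them formed a run from 7.42 to 5.05 FPKM with no step beyond counting error. Within it, too, libraries farther apart could differ, as normoxia at 3 h over normoxia at 1 h gave 0.699 (0.499 to 0.977).

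FPKM is scaled to transcript length, so the levels of the 3 genes can be set side by side. Vegfa had the highest level in every library, 2.44 to 5.28 times that of Efna1 and 1.39 to 36.3 times that of Areg. Areg was above Efna1 in the 1 h libraries of all arms and in normoxia at 3 h, and below it in the other 5 libraries. At 6 h the level of Efna1 was 6.93 times that of Areg in OGD+Oba, 8.84 times in OGD and 1.47 times in normoxia. Among the 675 genes of the table, Vegfa was above 96.9% and 97.0% of genes in the OGD+Oba and OGD libraries of 6 h, against 56.7% in normoxia.

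The OGD+Oba libraries were set against the OGD libraries to see what obacunone did to the ligands in deprived cells. None of the 3 genes passed the test. Vegfa was lower with obacunone at 1 h and 6 h and higher at 3 h, Efna1 was lower at each time, and Areg was higher at each time.

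The fold of OGD+Oba over OGD for Vegfa was 0.841 at 1 h (0.757 to 0.934), 1.19 at 3 h (1.15 to 1.25) and 0.939 at 6 h (0.912 to 0.967). These intervals exclude 1 on both sides of it, and they hold counting error only. For Efna1 it was 0.909 (0.625 to 1.32), 0.862 (0.766 to 0.969) and 0.989 (0.899 to 1.09). For Areg it was 1.17 (0.822 to 1.66), 1.46 (1.12 to 1.92) and 1.26 (0.925 to 1.73).

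The common effect of obacunone was -0.02 ± 0.11 for Vegfa (interval -0.27 to 0.22), -0.11 ± 0.11 for Efna1 (-0.36 to 0.14) and 0.32 ± 0.13 for Areg (0.03 to 0.62), each with an adjusted p of 0.9993 in limma. The sign for Vegfa turned when the 1 h libraries (0.082) or the 6 h libraries (0.0091) were left out. Areg had rank 11 of 580, was higher at 3 of 3 times and kept a positive value, 0.24 to 0.39, over 10 alternatives. In this test 0.172% of genes were called higher and 0% lower (22 genes at an unadjusted p under 0.05). For all 3 genes the interval lies within a 2-fold change either way on the log2(FPKM + 1) scale.

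**Figure D4:**
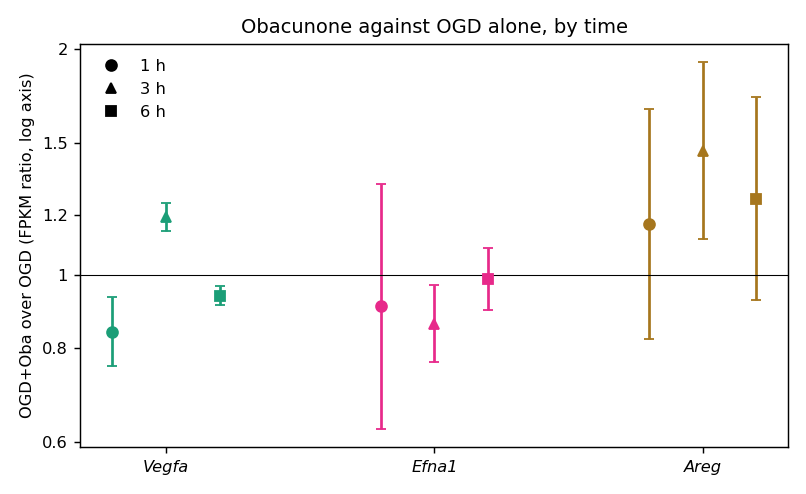
FPKM ratio of OGD+Oba over OGD (log axis) at 1, 3 and 6 h, with 95% intervals from inferred counts, 1 library per level. Vegfa scatters around 1, from 0.841 to 1.19, Efna1 lies at or below 1, and the 3 points of Areg lie above 1, from 1.17 to 1.46.

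The genes with the most similar course were found by the root mean square (RMS) difference of centred log2(FPKM + 1) over the 9 libraries, as a description. Efna1 was the nearest of all tested genes to Vegfa, at 0.31, against a median of 1.63 for all genes and 1.51 for Areg, which had rank 228. Next to Vegfa came Smtnl2 (0.36), Ppp1r3c (0.40), which brings a phosphatase to glycogen, the transcriptional repressor Prdm1 (0.42) and Cited2 (0.48), a coregulator that competes with HIF-1 for its coactivator. Efna1 had the same set, led by Ppp1r3c (0.27) and Vegfa (0.31). Each pair of genes shares all 9 libraries, and the likeness describes the course only.

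Ppp1r3c shows the shape, at 2.43, 21.7 and 26.4 FPKM in OGD+Oba, 2.85, 22.9 and 26.1 FPKM in OGD and 1.19, 0.50 and 0.79 FPKM in normoxia. The OGD effect at 3 h was 2.98 ± 0.10 for Cited2, 2.65 ± 0.21 for Prdm1 and 2.59 ± 0.21 for Smtnl2. These genes were chosen for their likeness over the same libraries, so their values are a description and carry no test.

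Areg had other neighbours: Sord (0.26), a sorbitol dehydrogenase, the growth factor gene Pdgfc (0.27), the phosphofructokinase Pfkl (0.29), the collagen hydroxylase P4ha1 (0.29) and the transcription factor Klf4 (0.29), against a median of 0.76 for all genes. Sord stood at 34.8, 36.7 and 38.4 FPKM in OGD+Oba, 27.6, 32.1 and 37.8 FPKM in OGD and 33.6, 22.3 and 15.2 FPKM in normoxia. Like Areg, it had a narrower range in the deprived arms than in normoxia and a lower normoxia level at each later time. Their OGD effects at 3 h ran from 0.51 ± 0.14 for Sord to 0.95 ± 0.10 for Klf4, likewise as a description of genes chosen for likeness. With Pearson correlation as the measure, 0 of the 5 genes named for Vegfa, 1 for Efna1 (Smtnl2) and 1 for Areg (Sord) were named again.

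**Figure D5:**
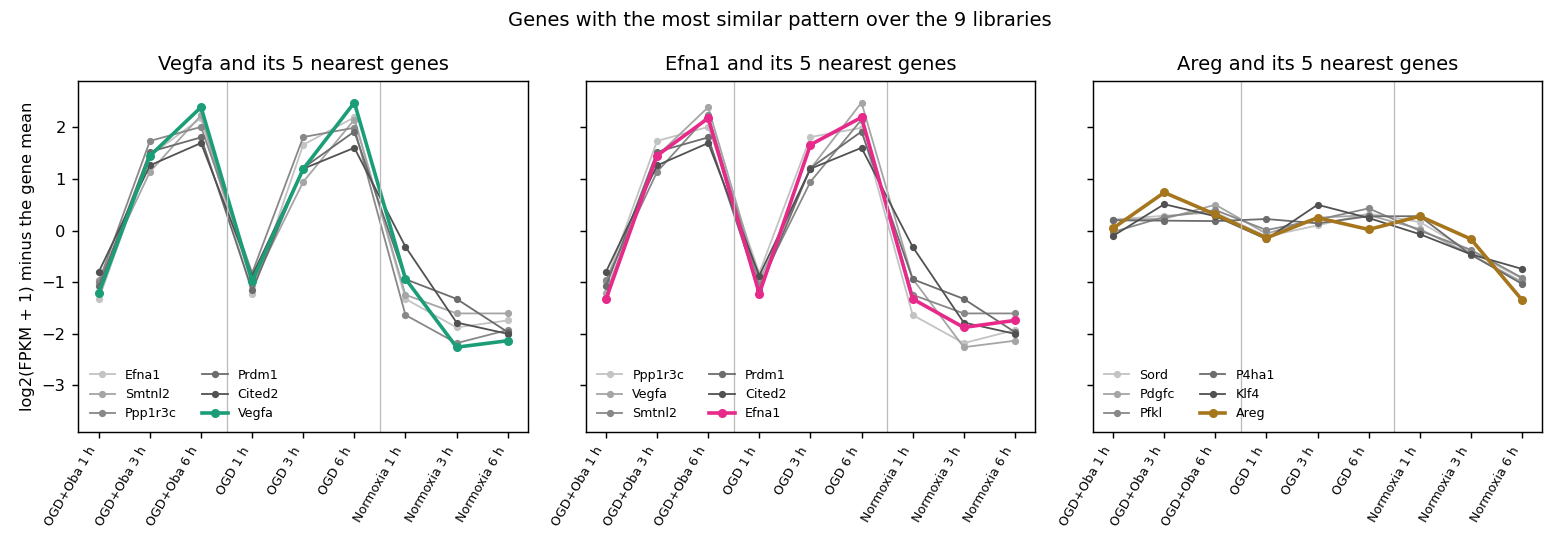
Centred log2(FPKM + 1) of each ligand gene (coloured) and its 5 nearest genes (grey) over the 9 libraries, in the order OGD+Oba, OGD, normoxia. Vegfa and Efna1 share a course with low 1 h libraries and high 3 h and 6 h libraries in both deprived arms, and Areg and its neighbours have their lowest level in normoxia at 6 h.

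Few partners of the 3 ligands were in the table, which holds only genes changed at 6 h. Of 9 other VEGF ligands and receptors 1 was listed, the receptor gene Flt1, at 0.06 to 0.11 FPKM in OGD+Oba, 0.05 to 0.26 in OGD and 0.23 to 0.68 in normoxia, under the floor for testing. Of 21 other ephrins and Eph receptors 0 were listed. Of 20 further EGF family genes 1 was, betacellulin (Btc), another ligand of the EGF receptor, at 1.47, 1.93 and 2.23 FPKM in OGD+Oba, 1.96, 1.83 and 2.79 FPKM in OGD and 1.27, 2.26 and 1.41 FPKM in normoxia. Btc missed the test at 1 h and 3 h (0.33 ± 0.23 and -0.11 ± 0.23) and had 0.61 ± 0.23 at 6 h, the comparison the table chose genes on. The partners outside the table were not analysed here.

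Of 26 other angiogenic ligands and receptors 4 were listed and 1 was tested. That was the netrin gene Ntn4, whose effect was -0.41 ± 0.20 at 3 h and -1.07 ± 0.20 at 6 h, where the genes of the table were chosen. Adm, the hypoxia-induced gene of the vasodilator peptide adrenomedullin, was under the floor. It was at 1.25 and 3.03 FPKM in OGD+Oba and 1.55 and 2.87 FPKM in OGD at 3 h and 6 h, and was listed at 0 in normoxia at both times. Angpt1, a Tie2 ligand gene, was at 0.70 to 1.26 FPKM in OGD+Oba, 0.86 to 0.95 in OGD and 0.22 to 0.90 in normoxia, and the growth factor gene Fgf2 was also under the floor.

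Set among 50 tested genes whose deposited component terms name the extracellular space or region, a list chosen after the data were seen, Vegfa had the largest OGD effect and Efna1 the second largest at 3 h and at 6 h. Areg was 19th at both times. At 3 h limma called 17 of these 50 higher and 17 lower, where 31.2% of all tested genes were called higher and 24.8% lower, with a median effect of 0.02 beside 0.08 over all tested genes. Next after Efna1 came the neutrophil chemokine Cxcl2, with 2.33 ± 0.21 at 3 h.

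HIF-1 is the transcription factor that low oxygen stabilises. Of 24 listed targets 16 were tested; limma called 0 at 1 h, 15 higher at 3 h and 16 higher at 6 h. Of all tested genes 0%, 31.2% and 52.9% were called higher at these times, and nothing is read from the 6 h count, since the genes were listed for that difference. The median effect was 0.05, 1.56 and 2.61, beside -0.05, 0.08 and 0.76 over all tested genes. The 3 h count is not independent of the 6 h listing, and all tested genes include those listed as lower at 6 h. The 3 h effect also holds the change in normoxia. From 1 h to 3 h the median change over the 16 targets was 1.34 in the deprived arms and -0.44 in normoxia. Over all tested genes it was 0.04 and -0.08. Against normoxia at 3 h the glucose transporter Slc2a1 was higher by 1.57 ± 0.09 and the mitophagy receptor Bnip3 by 1.56 ± 0.10. The mTOR inhibitor Ddit4 was higher by 2.53 ± 0.10 and the repressor Bhlhe40 by 2.24 ± 0.08. The exception at 3 h was Pdk1 (0.35 ± 0.15, limma, adjusted p = 0.0747), a kinase that holds back pyruvate oxidation.

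Immediate early genes and other genes driven by CREB or AP-1 took another course. Of 22 listed, 11 were tested; limma called 8 lower at 1 h, 10 higher at 3 h and 11 higher at 6 h. Of all tested genes 3.79% were called lower at 1 h, and 31.2% and 52.9% higher at 3 h and 6 h, where the same limit on 6 h holds. The median effect was -1.37, 1.51 and 2.10, beside -0.05, 0.08 and 0.76 over all tested genes. Here too the 3 h count is not independent of the 6 h difference the genes were listed for. Against normoxia at 1 h the phosphatase gene Dusp1 was lower by 1.37 ± 0.09 in log2 and Ier3 by 0.86 ± 0.13. The transcription factor genes Junb and Atf3 were lower by 1.26 ± 0.13 and 1.37 ± 0.14. Against normoxia at 3 h they were higher, in this order, by 0.59 ± 0.09, 2.82 ± 0.13, 1.65 ± 0.13 and 1.66 ± 0.14. From 1 h to 3 h the median change over the 11 genes was 1.38 in the deprived arms and -1.30 in normoxia. For Atf3 these changes were 0.25 ± 0.11 and -2.78 ± 0.16. Atf3, which binds CRE and AP-1 sites, was at 104, 112 and 96.0 FPKM in OGD+Oba, 79.4, 104 and 99.3 FPKM in OGD and 224, 31.9 and 13.2 FPKM in normoxia. As with Areg, its normoxia level was highest at 1 h and lowest at 6 h, and its normoxia levels spanned more than its deprived levels. Junb, Ier3 and Dusp1 instead spanned more in the deprived libraries. Junb was at 50.65 to 377 FPKM there and at 52.4 to 130 FPKM in normoxia. Whether Areg shares a cause with Atf3 or with P4ha1 was not tested.

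Of 10 listed targets of YAP, a coactivator that answers cell tension, 3 were tested; limma called 2 lower at 1 h and 3 lower at 3 h and at 6 h. Of all tested genes 3.79%, 24.8% and 44.7% were called lower at these times, the 6 h calls again among genes listed for that difference. Ccn2, a matricellular protein gene, and the ankyrin repeat gene Ankrd1 fell at 1 h, by 0.70 ± 0.08 and 0.42 ± 0.09 in log2 (limma, adjusted p = 0.00122 and 0.0455). At 3 h Ccn2 was lower by 2.42 ± 0.08, Amotl2 by 1.81 ± 0.15 and Ankrd1 by 0.94 ± 0.09. The 3 h count of these targets is likewise not independent of the 6 h listing.

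The cell type label could not be settled with this table, since 1 of 16 endothelial markers, Flt1, is in it. Flt1 was at 0.05 to 0.68 FPKM, under the floor for testing, and so does not bear the label out. Of 12 epithelial markers 1 was listed, the claudin gene Cldn4, at 107 to 307 FPKM in OGD+Oba, 109 to 308 in OGD and 60.9 to 138 in normoxia; it rose with Vegfa and Efna1, by 1.45 ± 0.09 at 3 h (limma, adjusted p = 9.8e-06). Of 5 neuron markers 1 was listed, the tubulin gene Tubb3, at 3.32 to 5.26 FPKM in OGD+Oba, 3.43 to 6.76 in OGD and 7.17 to 10.7 in normoxia. None of the pericyte, fibroblast, astrocyte, microglia or oligodendrocyte markers was listed. The part of these cell types in the ligand results was not tested.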

How the data were processed

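RNA was isolated on columns and DNBSEQ libraries were sequenced, per the labels' protocols; HISAT2 2.0.4 and GRCm38 are named in the submitters' processing notes, and the counting tool is not given in the sources used here. The deposited values are FPKM with 2 decimals, per the file headers, and the authors' log2 ratios, which the authors took between libraries of the same time. The members and lists were chosen with earlier results of these data known.

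Genes averaging 1 FPKM or more over the libraries were tested on log2(FPKM + 1) with limma 3.58.1 (trend) in R 4.3.3 on all 9 libraries, with Benjamini-Hochberg adjustment over 580 genes and a threshold of 0.05. A fold on this scale understates low genes. The fit with an OGD effect for each time had 2 residual and 5.48 prior degrees of freedom, the additive fit 4 and 21.3. The fits were tested on simulated data. P values measure the spread of single libraries, which the labels do not tie to separate cultures.

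Fragment counts, a step chosen after seeing the data, are the smallest whole numbers whose log2 ratios match those of the authors within a relative 1e-12. For Efna1 they were multiplied by 4, 2 and 1 at 1, 3 and 6 h, so that a count per FPKM is alike in all libraries. They are inferred and were used for intervals (exact Poisson for levels, exact binomial for folds), not for tests. With the length of each gene's longest coding transcript they gave a median depth of 12400000 fragments over 416 genes (quartiles 11100000 and 13200000).

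Genes were named by rule: the 3 ligands, the 5 nearest to each by RMS difference (predicted genes passed over), and the up to 4 of each list with the highest mean. Cxcl2 and Pdk1 were picked once their values were known, and the contrasts of 3 h minus 1 h within an arm were also added then. Alternatives were a pseudocount of 0.1, a floor of 5 FPKM or none, median-ratio scaling over the tested genes, limma with no trend, limma's robust option, leaving out each time, OGD and normoxia libraries alone, the additive model for obacunone, and Pearson correlation for likeness.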

Additional observations from a re-analysis of the deposited data

Results flagged for a closer look

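The effect of OGD differed between times by the limma test of that difference. From 1 h to 3 h it grew by 3.75 for Vegfa, 3.39 for Efna1 and 0.98 for Areg on the log2 scale. From 3 h to 6 h it grew by 0.99 for Vegfa and 0.85 for Areg. The 6 h effect in this change is the value the genes of the table were chosen on. Both calls ended with median-ratio scaling (limma, adjusted p = 0.102 and 0.134) and in limma without trend (0.0596 and 0.0566), and that of Areg also with no floor (0.0656). The normoxia libraries enter these differences, and for Areg the 6 h normoxia level of 1.67 FPKM lies below all other libraries.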

How the results depend on the processing

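Of 216 values of the 3 ligands under alternatives, 196 kept their direction and their side of the threshold. This count includes the 6 h effects and values that missed the threshold in both settings. It is therefore no measure of how stable the calls are. The rises of Vegfa and Efna1 at 3 h passed under all 8 alternatives, and the change of the OGD effect from 1 h to 3 h of all 3 genes under 7. The 6 h values follow from how the genes were chosen, and nothing is read from them. Within the deprived arms the rise from 1 h to 3 h of all 3 genes passed under 7 alternatives, as did the fall of Vegfa in normoxia; that of Efna1 in normoxia passed with a pseudocount of 0.1 (-0.73).

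The change from 3 h to 6 h no longer passed with median-ratio scaling (Vegfa 0.46, Areg 0.44), in limma without trend (Vegfa 0.99, Areg 0.85) and, for Areg, with no floor (0.85). Areg at 3 h passed with scaling (0.46) and without trend (0.50). Over the 3 times, Vegfa and Efna1 no longer passed with scaling (2.51 and 2.38), the robust option (2.68 and 2.53), without 3 h (2.29 and 2.02) and without 6 h (1.71 and 1.82). Areg passed without 1 h (0.89) and had -0.0035 without 6 h. The obacunone value of Vegfa turned to 0.082 without 1 h and 0.0091 without 6 h. The cause of these changes was not tested.

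Counts of called genes moved most over the 3 times. There, higher and lower calls were 18 and 6, against 229 and 208 without 1 h, 5 and 1 without 3 h, 1 and 2 without 6 h, 0 and 0 with scaling, and 33 and 11 with the robust option; higher calls were 9 with a pseudocount of 0.1 and 11 without trend. For obacunone the counts were 1 and 0, against 7 and 5 without 1 h, 3 and 3 without 3 h, 7 and 6 without 6 h, and 4 and 2 in the additive model; higher calls were 0 with scaling, without trend and with the robust option. At 1 h higher calls were 3 with a pseudocount of 0.1, 2 without 3 h and 4 without 6 h, against 0, and lower calls 10 with scaling, against 22. Lower calls at 6 h were 152 with a floor of 5, which tests fewer genes, against 259. For the change from 3 h to 6 h higher and lower calls were 29 and 174 with scaling and 31 and 8 without trend, against 114 and 56; from 1 h to 3 h lower calls were 115 with scaling, against 62. Within normoxia from 1 h to 3 h lower calls were 42 with scaling and 48 without trend, against 74, and higher calls 18 without trend, against 33. With Pearson correlation 0, 1 and 1 of the 5 likeness genes of Vegfa, Efna1 and Areg were named again.

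The fits compared libraries within each time, so the obacunone test was paired by time. Each group holds 1 library, so replicates within a group could not be paired or compared. The scaling factors come from genes chosen as changed at 6 h, so they do not settle the level of the 6 h libraries. With this scaling, 16 of 54 folds of the ligand genes between 2 libraries left their counting interval. At 21 to 137 inferred fragments per library, differences of Areg between neighbouring levels from 7.42 to 5.05 FPKM were not detectable at this depth.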

Other observations

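The deposited component terms of Areg, 15 in number, include the mitochondrial calcium uniporter complex beside extracellular and membrane terms. The RefSeq table lists Mcub, a subunit gene of that complex, among the synonyms of Areg. Its symbol, its gene identifier 11839 and its place on chromosome 5 are those of amphiregulin, and the deposited terms were not used to choose it.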
